A study of Homo sapiens with 2 samples.

Results

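Mitochondrial fatty acid oxidation turns long-chain fatty acids into acetyl-CoA and reduced electron carriers. Carnitine palmitoyltransferases on the outer and inner membranes pass the acyl group into the matrix, where each round of beta-oxidation removes a 2-carbon unit through dehydrogenation, hydration, a further dehydrogenation and thiolysis. Electrons from the acyl-CoA dehydrogenases reach the respiratory chain through the electron transfer flavoprotein. The pathway is best known from heart, muscle and liver, and tumour cells use it to a variable extent.

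The 10 genes described here were taken by name from 58735 genes in the deposited tables: the shuttle enzymes CPT1A and CPT2, the acyl-CoA dehydrogenases ACADVL, ACADM and ACADS, the trifunctional protein subunits HADHA and HADHB, the enoyl-CoA isomerases ECI1 and ECI2, and ETFB, the beta subunit of the electron transfer flavoprotein. All 10 were found, and all 10 had at least 1 FPKM in the higher library, the minimum used here for a measured gene. FPKM here is reads per gene scaled for exon length, with the same depth divisor in both libraries. The libraries came from BT549, a mesenchymal triple-negative breast cancer cell line. The group named scrambled had a control short hairpin RNA, and the group named shSIK2 had one that targets SIK2, an AMPK-related protein kinase. Both were treated with Wnt3a for 2 h. Each group was 1 library, so no difference has a replicate check, there is no test and no p-value, and "higher" or "lower" compares these libraries, not the conditions. The sources used here give neither the hairpin sequence nor the number of hairpins, nor whether the cells were a clone or a pool, and no library without Wnt3a was analysed.

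SIK2 had 7.80 FPKM (scrambled) and 3.56 (shSIK2). It was 2.19-fold lower (95% counting interval 1.99 to 2.42), with 1312 and 599 reads recovered from the deposited values. Total recovered reads were 18019225 and 16347399, and the deposited values are not adjusted for this difference; equal totals would multiply every ratio of shSIK2 over scrambled by 1.10. Of 5 markers that are high in BT549, VIM was at 260.3 and 283.3 FPKM, and AXL, FN1 and ZEB1 were also measured in both, 1.39-fold, 1.32-fold and 1.14-fold lower in the shSIK2 library. CDH2 was 6.09-fold lower there, at 2.44 and 0.40 FPKM. The part of these marker differences in the results was not tested. CDH1, EPCAM, ESR1 and PGR were under the minimum in both libraries, as the line is known for. ERBB2 and RB1 were measured, between 3.75 and 6.75 FPKM. None of the 4 hepatocyte, 4 adipocyte, 4 muscle and 5 leukocyte markers reached 1 FPKM. In a bulk library, fewer cells with a transcript and less of it per cell cannot be told apart.

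The promoters of 4 of these genes are shown because HADHA and HADHB, divergent neighbours with nearly equal ratios, share one, and because ACADS and ECI2 were the members past 2-fold. They are bases upstream of RefSeq transcription starts on GRCh38.p14, written 5′ to 3′ on the gene's strand, except that the HADHA and HADHB stretch is written on the forward strand, the strand of HADHB. Capitals mark the GC box GGGCGG or its reverse complement CCGCCC, the element read by SP-family factors.
HADHA and HADHB, chr2:26244689-26244882, forward strand: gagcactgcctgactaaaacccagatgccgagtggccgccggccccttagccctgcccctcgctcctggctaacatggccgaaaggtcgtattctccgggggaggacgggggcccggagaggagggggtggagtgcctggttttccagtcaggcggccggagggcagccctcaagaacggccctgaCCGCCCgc
ACADS, chr12:120725576-120725825, forward strand: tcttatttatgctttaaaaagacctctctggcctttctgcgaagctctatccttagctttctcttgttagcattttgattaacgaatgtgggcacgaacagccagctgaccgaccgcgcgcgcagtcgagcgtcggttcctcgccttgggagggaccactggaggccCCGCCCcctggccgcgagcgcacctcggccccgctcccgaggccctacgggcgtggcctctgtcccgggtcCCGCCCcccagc
ECI2, chr6:4135576-4135825, reverse strand: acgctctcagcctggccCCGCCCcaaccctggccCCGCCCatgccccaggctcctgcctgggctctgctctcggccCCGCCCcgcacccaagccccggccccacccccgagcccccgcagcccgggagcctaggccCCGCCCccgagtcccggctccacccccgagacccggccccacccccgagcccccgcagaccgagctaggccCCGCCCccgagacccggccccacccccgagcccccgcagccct
The RefSeq starts of HADHA and HADHB lie 307 bases apart, and the 194 bases shown lie upstream of both. Other annotated transcripts of these genes start within the stretch. The HADHB gene as annotated for the read counts begins before it, at 26243170, and spans the whole stretch. The ACADS and ECI2 genes in that annotation begin within their own stretches, at 120725735 and 4135597, so part of each stretch lies inside the gene. The HADHA and HADHB stretch holds 1 GC box, the ACADS stretch 2 and the ECI2 stretch 5, with GC contents of 68.6%, 62.8% and 81.6%.

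Recognition sequences were searched on both strands in the RefSeq windows of all 10 genes, from 250 bases before to 50 after each start (13 windows, since ACADVL, ECI2 and ETFB have more than 1). The GC box was found in 11 of the 13 windows, beside 45.0% of the 35116 windows of the whole table, and in at least 1 window of every gene but CPT1A. The windows of HADHA and HADHB overlap, as do those of ECI2, so a box can be counted in more than 1 window. Most member windows were richer in GC than the median of all windows (58.7%), with a range of 48.3% to 79.0%. The part of GC content in the GC box count was not tested. The CREB element TGACGTCA, of interest because SIK kinases restrain the CREB coactivators of the CRTC family, matched in 0 of the 13 windows and in 1.85% of all windows. The element TCAAGGTCA, read by the oestrogen-related receptor ESRRA, also matched in 0 (0.353% of all windows). These are matches of letters in a short window and say nothing of binding.

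Most of the pathway stood at a similar level in both libraries. Of the 10 genes, ACADS and ECI2 were higher by 2-fold or more with the SIK2 hairpin, 0 were at least 2-fold lower and 8 lay between. Among all 12866 measured genes 11.0% were at least 2-fold higher and 8.28% at least 2-fold lower, so 2 of 10 is close to the background. At equal totals the same 2 were called, beside 13.4% of all genes higher and 6.04% lower, and at a 1.5-fold threshold also 2 and 0, beside 19.7% and 21.3%. The 2-fold rule is on log2(FPKM + 0.1), which understates the ratio of low genes. The median log2 ratio of the 10 was 0.04, beside -0.11 for all measured genes, and ranged from -0.38 for ACADM to 1.35 for ACADS. Summed over the members, recovered reads were 10942 (scrambled) and 11205 (shSIK2), and summed FPKM 136.9 and 138.9.

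**Figure D1:**
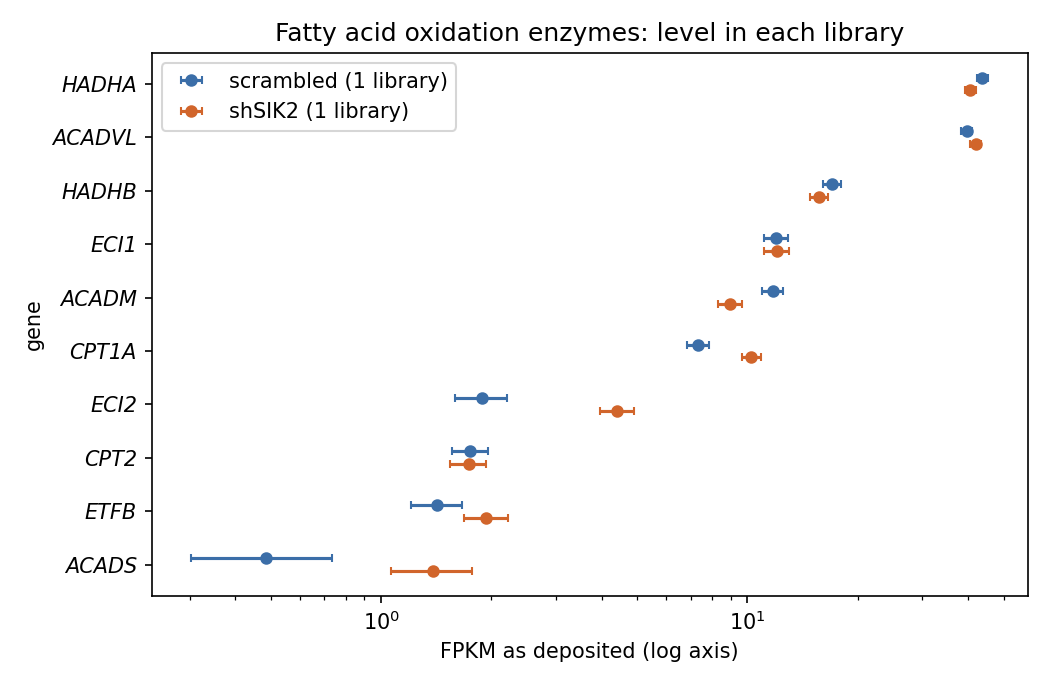
FPKM of each gene (log axis) in the scrambled library (blue) and the shSIK2 library (orange), with exact Poisson 95% intervals that cover counting error only. HADHA and ACADVL lie near 40 FPKM in both libraries, and ACADS has the lowest value in both, at 0.48 and 1.39 FPKM, with an interval that overlaps those of CPT2 and ETFB in the shSIK2 library.

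Levels spanned a wide range within a library. From HADHA to ACADS the range was 90.3-fold (scrambled), and from ACADVL to ACADS 30.3-fold (shSIK2). The 4 highest genes were HADHA, ACADVL, HADHB and ECI1 in both libraries, with HADHA and ACADVL changing places. Lower in the order, CPT1A and ACADM exchanged the fifth and sixth places, and CPT2 and ETFB the eighth and ninth. Counting intervals of CPT2 and ETFB overlapped in each library, so their order is not resolved. Nor is that of ECI1 and ACADM or of ECI2 with CPT2 and ETFB in the scrambled library. In the shSIK2 library the order of ACADVL and HADHA is not resolved, nor is that of ACADS with CPT2 and ETFB. The deposited scale divides by all annotated exons of a gene merged, which lowers genes with long alternative exons. CPT2 has 10452 merged exonic bases against 3094 in its principal transcript, and ETFB 6526 against 900. On the principal transcript length, an alternative added after seeing the data, CPT2 stood at 5.91 and 5.86 and ETFB at 10.3 and 14.05 in the scrambled and shSIK2 libraries. ACADVL then led in both libraries, and ACADS remained lowest.

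CPT1A, the outer membrane carnitine palmitoyltransferase that malonyl-CoA inhibits and that commits long-chain acyl groups to oxidation, was higher in the shSIK2 library. Its level was 7.31 FPKM with the control hairpin and 10.3 with the SIK2 hairpin (chromosome 11, 68754620 to 68844410, GRCh38). The ratio was 1.40 (1.28 to 1.53), and 1.55 (1.41 to 1.69) at equal totals. The counting intervals of the 2 libraries did not overlap, and 22.8% of measured genes had a ratio at least as high. CPT2, the inner membrane enzyme that re-forms acyl-CoA in the matrix, had 314 and 311 reads, or 1.75 and 1.73 FPKM (chromosome 1, 53196429 to 53214197). Its ratio was 0.99 (0.84 to 1.16), a difference not detectable at this depth. Within a library, the comparison of one gene with another needs no scaling between libraries: CPT1A over CPT2 was 1.42 times as large in the shSIK2 library as in the scrambled one (1.18 to 1.70).

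The acyl-CoA dehydrogenases, which divide the work by chain length, differed among themselves. ACADVL, the enzyme for very long chains and the most abundant of the 3, had 39.6 FPKM (scrambled) and 41.98 (shSIK2) (chromosome 17, 7217125 to 7225273). Its ratio was 1.06 (1.01 to 1.11). ACADM, the medium-chain enzyme, stood at 11.7 and 8.97 FPKM and was 1.31-fold lower in the shSIK2 library (1.18 to 1.44; chromosome 1, 75724347 to 75787575). ACADM was the only one of the 10 genes lower under all 3 scalings, namely as deposited, at equal totals and with the trend on GC content and length removed. ACADS, the short-chain enzyme, stood at 0.48 and 1.39 FPKM (chromosome 12, 120725735 to 120740008). Its 22 and 63 reads gave a 2.86-fold higher value in the shSIK2 library, with a wide interval (1.74 to 4.89). ACADS passed the minimum of 1 FPKM only through the shSIK2 library. A gene measured through 1 library alone can only be higher there.

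As a share of the summed FPKM of the straight-chain dehydrogenases, ACADVL made up 76.5% in the scrambled and 80.2% in the shSIK2 library. ACADM made up 22.6% and 17.1%, and ACADS 0.93% and 2.65%. ACADL, the long-chain enzyme, had 0 reads in both libraries, which allows up to 3 reads in each. The class sum was nearly equal, 51.8 and 52.3 FPKM, while its parts were not. ACADVL over ACADM was 1.38 times as large in the shSIK2 library (1.24 to 1.54), and ACADM over ACADS was 3.74 times as large in the scrambled library (2.24 to 6.44).

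**Figure D2:**
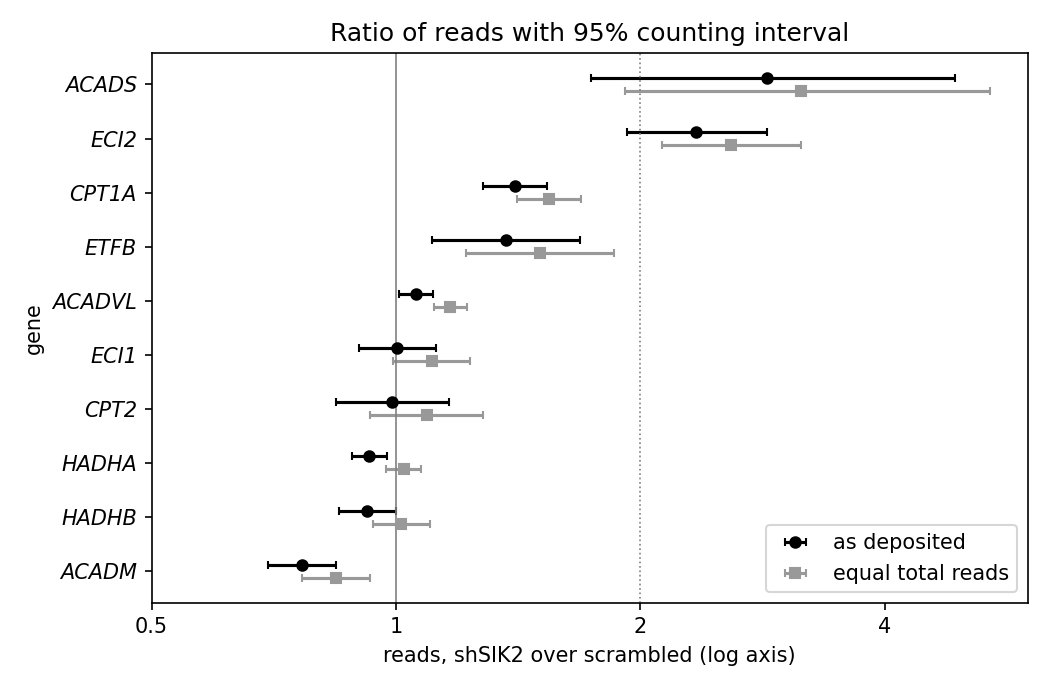
Ratio of recovered reads, shSIK2 over scrambled (log axis), for each gene with its exact 95% counting interval, as deposited (black) and at equal total reads (grey); the solid line marks equal reads and the dotted line 2-fold. ACADS, ECI2, CPT1A and ETFB lie above 1 and ACADM below 1 on both scales, whereas HADHA and HADHB pass from 0.93 and 0.92 to 1.02 at equal totals.

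HADHA and HADHB encode the alpha and beta subunits of the mitochondrial trifunctional protein, which carries out the last 3 steps of the long-chain spiral. HADHA had 43.7 FPKM with the control hairpin and 40.6 with the SIK2 hairpin, from 3291 and 3052 reads (chromosome 2, 26190635 to 26244726). HADHB stood at 17.02 and 15.7 FPKM, with 1250 and 1152 reads (chromosome 2, 26243170 to 26290468). Their ratios were 0.93 (0.88 to 0.97) and 0.92 (0.850 to 0.999). HADHA over HADHB was 2.57 (scrambled) and 2.59 (shSIK2) in FPKM, or 1.77 and 1.78 on principal transcript lengths. This quotient differed between libraries by a factor of 1.01 (0.91 to 1.11). Of the 7 pairs compared in this way, it was the only one whose interval held 1. Whether both genes were lower depends on the scaling, since at equal totals both ratios were 1.02.

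The enoyl-CoA isomerases, which move the double bonds of unsaturated fatty acids into the position that beta-oxidation can use, did not keep their proportion. ECI1 stood at 11.96 and 12.02 FPKM, with 664 and 667 reads in the scrambled and shSIK2 libraries (chromosome 16, 2239395 to 2252300). Its ratio was 1.005 (0.90 to 1.12). ECI2, the isomerase found in both mitochondria and peroxisomes, stood at 1.88 and 4.42 FPKM, with 148 and 347 reads (chromosome 6, 4115689 to 4135597). It was 2.34-fold higher in the shSIK2 library (1.93 to 2.86), and 8.57% of measured genes had a log2 ratio at least as high. ECI1 over ECI2 in FPKM was 6.35 (scrambled) and 2.72 (shSIK2), or 4.51 and 1.93 on principal transcript lengths. That quotient was 2.33 times as large in the scrambled library (1.86 to 2.93).

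ETFB, which pairs with ETFA to collect electrons from the acyl-CoA dehydrogenases, had 1.42 FPKM (scrambled) and 1.94 (shSIK2), from 159 and 217 reads (chromosome 19, 51345169 to 51366418). Its ratio was 1.36 (1.11 to 1.69). ETFA, its partner, went the other way, from 20.9 to 16.3 FPKM, 1.28-fold lower (1.19 to 1.37). ETFA over ETFB was 14.7 and 8.41 in FPKM, or 4.46 and 2.55 on principal transcript lengths, and 1.75 times as large in the scrambled library (1.40 to 2.19). ETFDH, which passes these electrons on to ubiquinone, was 1.43-fold higher (1.27 to 1.63).

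The members past 2-fold were among the lowest in level. With a mean over both libraries under 5 FPKM there were 4 members, CPT2, ACADS, ECI2 and ETFB, of which 2 were at least 2-fold higher; among all 5830 measured genes of that range 19.0% were. Of the 6 members with a mean of at least 5 FPKM, 0 were at least 2-fold higher, beside 4.35% of 7036 genes. Over the 10 members, the Spearman rho of the log2 ratio with the level in the scrambled library was -0.60, and -0.37 over measured protein-coding genes. These are descriptions across genes of the same libraries. Level and ratio share the scrambled value.

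**Figure D3:**
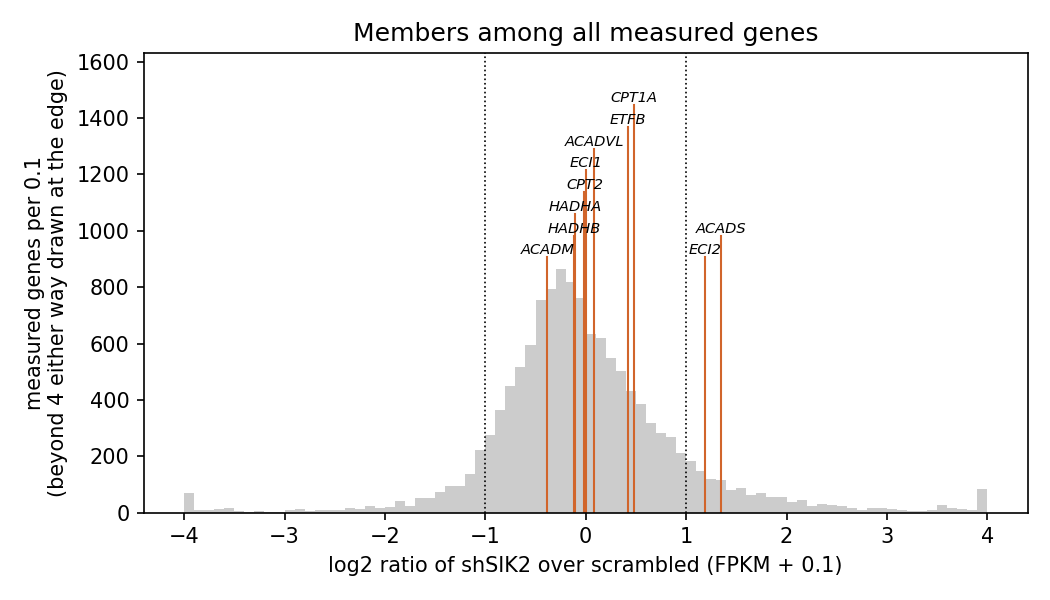
Histogram of the log2 ratio of shSIK2 over scrambled on FPKM + 0.1 for the 12866 measured genes (grey, values beyond 4 in either direction at the edge), with the 10 members as orange lines and 2-fold as dotted lines. Of the members, 8 lie between the dotted lines and ACADS and ECI2 to the right of them.

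GC content moved with the ratio across the libraries, with a Spearman rho of 0.33 over 10663 measured protein-coding genes and 0.58 over the 10 members. ACADS, with 64.6% GC the richest member, had a log2 ratio of 1.35 as deposited and 0.73 after the trend on GC content and length was removed, which is under 2-fold. ECI2, with 44.5% GC, had 1.19 as deposited and 1.35 without the trend. Without the trend, 1 of 10 members was at least 2-fold higher and 0 lower, beside 9.20% and 8.49% of all genes. ECI1, with 61.4% GC, went from 0.01 to -0.36. Of the 10 members, CPT1A, ACADS, ECI2 and ETFB were higher under all 3 scalings, ACADM was lower under all 3, and the sign of CPT2, ACADVL, HADHA, HADHB and ECI1 differed between them.

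**Figure D4:**
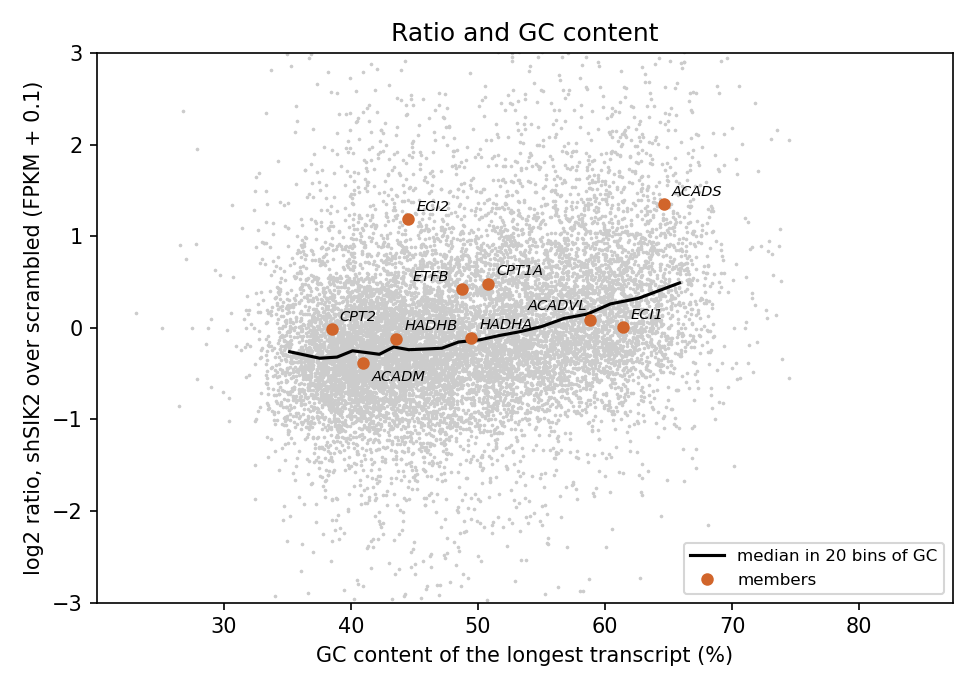
Log2 ratio of shSIK2 over scrambled on FPKM + 0.1 against GC content of the longest transcript (%), for measured genes (grey; ratios beyond 3 in either direction are not drawn) and the 10 members (orange), with the median in 20 bins of GC content (black). ECI2 lies well above the black line at its GC content, and ECI1 lies below it.

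The chromosomal surroundings of the members past 2-fold did not share their ratios. Of the 10 nearest measured genes around ACADS, 5 on each side, 0 were at least 2-fold higher and 2 were at least 2-fold lower, with a median log2 ratio of -0.80. Around ECI2, 0 of 10 passed 2-fold in either direction, with a median of -0.22. The shares over all measured genes were 11.0% higher and 8.28% lower. Reads of overlapping genes could enter some members, since no source used here says if strand was kept in library preparation. ECI2 shares 27.1% of its exonic bases with C6orf201 on the other strand, which had 2 and 1 reads. ACADM shares 157 exonic bases, 3.28% of its own, with RABGGTB on the same strand, which had 1969 and 1521 reads and so was lower in the shSIK2 library as ACADM was; the part of this overlap in the ACADM ratio was not tested. ACADVL shares 85 exonic bases with DLG4 on the other strand, which had 1829 and 1771 reads. CPT2 shares 99 with C1orf123 (375 and 311 reads) and 1151, or 11.0% of its own, with an antisense gene that had 0 and 1 reads, all on the other strand. ETFB overlaps only genes with 0 reads in both libraries. It shares 337 exonic bases, 5.16% of its own, with a protein-coding one of these on the same strand. The counter is not known, so reads of shared stretches may also have been left out. ACADS, HADHA, HADHB, CPT1A and ECI1 share no exonic base with another gene.

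The other measured genes of the carnitine system had more reads in the shSIK2 library, as did CPT1A. Of 6 other genes 5 were measured, 2 of them at least 2-fold higher and 0 lower, beside 11.0% and 8.28% of all measured genes. All 5 had more reads in the shSIK2 library, beside 43.6% of all measured genes. The median log2 ratio was 0.46 as deposited and 0.29 without the trend, where CRAT, the carnitine acetyltransferase, was lower, at -0.25. The carnitine transporter gene SLC22A5 (86 and 248 reads) was 2.88-fold higher (2.25 to 3.73), and its relative SLC22A4 (31 and 125 reads) 4.03-fold higher (2.70 to 6.18). SLC22A5 stood at 0.39 and 1.13 FPKM and SLC22A4 at 0.67 and 2.71. Both thus passed the minimum only through the shSIK2 library, where they could only be higher. CPT1C, the brain-enriched relative of CPT1A, stood at 11.9 and 16.4 FPKM, 1.38-fold higher (1.28 to 1.49). It made up 61.9% and 61.5% of the summed FPKM of the CPT1 genes, CPT1A 38.0% and 38.4%, and the muscle form CPT1B had 1 and 3 reads. These are shares of transcript level on merged exon lengths. On principal transcript lengths CPT1C stood at 24.0 and 33.1, and CPT1A at 9.18 and 12.9. SLC25A20, the carnitine-acylcarnitine carrier between CPT1 and CPT2, was 1.22-fold higher (1.07 to 1.39).

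Among 15 other mitochondrial beta-oxidation genes, 12 were measured and 0 passed 2-fold in either direction, with a median log2 ratio of 0.12. ACAA2, the thiolase of medium and short chains, was 1.70-fold higher (1.49 to 1.93), the largest ratio of that list. PCCA, a subunit of propionyl-CoA carboxylase, which takes up the odd-chain end product, was 1.58-fold higher (1.33 to 1.89). For peroxisomes, which shorten very long and branched chains, 12 of 16 genes were measured, 2 at least 2-fold higher and 0 lower. These 2 of 12 stand beside 11.0% of all measured genes. The median was 0.44, and 11 of the 12 had more reads in the shSIK2 library, beside 43.6% of all measured genes. CROT, which exports shortened chains as carnitine esters, was 2.62-fold higher (1.86 to 3.75), and ECH1, an isomerase present in peroxisomes and mitochondria, 2.22-fold higher (2.00 to 2.46). CROT, at 0.55 and 1.44 FPKM, passed the minimum only through the shSIK2 library. HSD17B4 and DECR2 were 1.81-fold (1.70 to 1.94) and 1.74-fold (1.44 to 2.11) higher. With the trend on GC content and length removed, the peroxisomal median was 0.41 and 2 genes were again at least 2-fold higher, since ECH1 was short of it, with a log2 ratio of 0.86, and HSD17B4 past it, with 1.09.

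**Figure D5:**
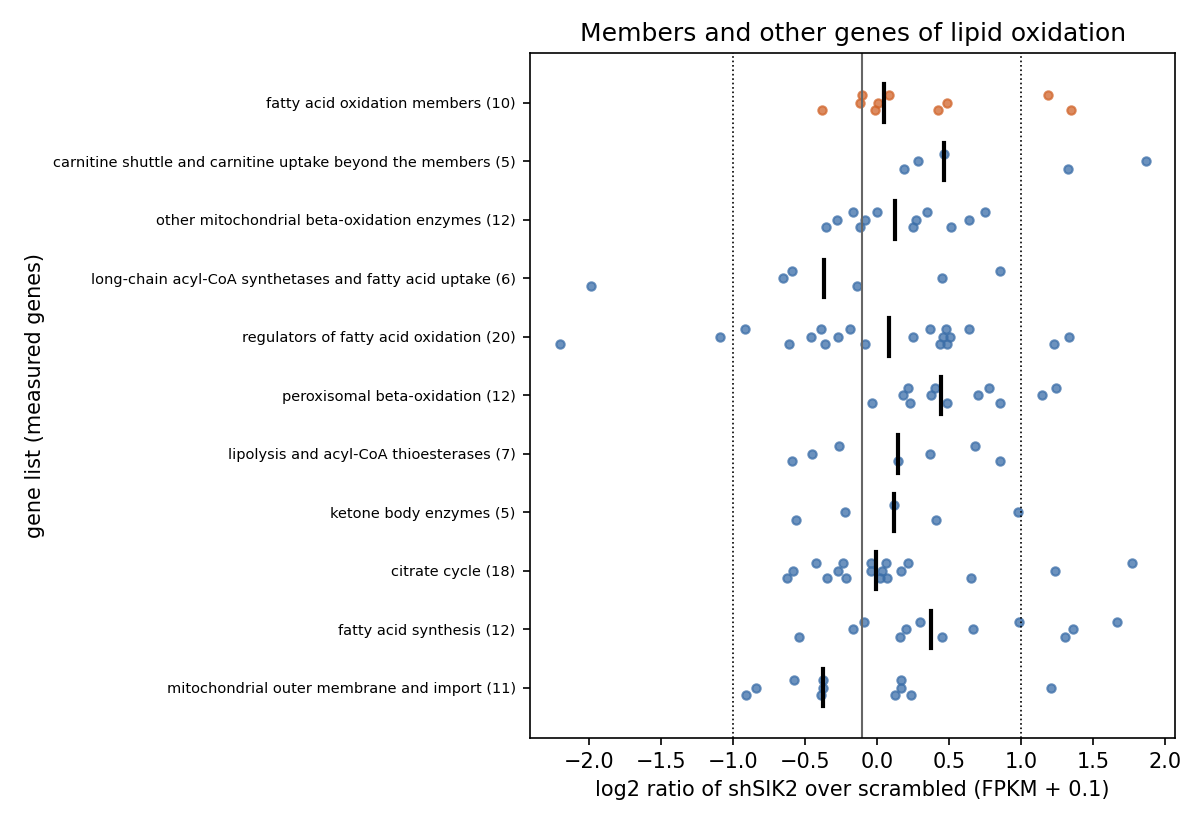
Log2 ratio of shSIK2 over scrambled on FPKM + 0.1 for each measured gene of the members (orange) and of 10 other lists (blue), with the number measured in brackets, list medians as black bars, the median of all measured genes (-0.11) as a grey line and 2-fold as dotted lines. The members' median is 0.04, that of the peroxisomal list 0.44 and that of the synthetase and uptake list -0.37.

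Supply and control genes did not move in one direction. Of 12 acyl-CoA synthetase and fatty acid uptake genes 6 were measured. Their median was -0.37, and 1 was at least 2-fold lower and 0 higher, beside 8.28% and 11.0% of all measured genes. FABP5, a fatty acid carrier of the cytosol, was 4.50-fold lower in the shSIK2 library (2.75 to 7.72, from 90 and 20 reads). At 2.52 and 0.56 FPKM, it passed the minimum only through the scrambled library. ACSL4, which prefers arachidonate, was 1.57-fold lower (1.52 to 1.63), ACSL1 1.51-fold lower (1.38 to 1.66) and the transporter SLC27A1 1.88-fold higher (1.54 to 2.30). Among 20 measured regulators of 25, the median was 0.08, with 2 past 2-fold upwards and 2 downwards (2 and 1 at equal totals). These counts are close to the shares of all measured genes, 11.0% and 8.28%, or 13.4% and 6.04% at equal totals. PPARG, a nuclear receptor of lipid storage, was 4.89-fold lower (3.95 to 6.11). NRF1, a transcription factor of mitochondrial genes, was 2.17-fold lower (1.84 to 2.57). LPIN1, a phosphatidate phosphatase and nuclear coregulator, was 2.37-fold higher (2.20 to 2.55), and ANGPTL4, a secreted lipase inhibitor and PPAR target, 2.55-fold higher (2.12 to 3.09). ANGPTL4 was short of 2-fold without the trend, at a log2 ratio of 0.89.

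Downstream and neighbouring routes were mixed. All 18 citrate cycle genes were measured, with a median of -0.01 (0.13 at equal totals) and with 2 past 2-fold upwards and 0 downwards. The 2 of 18 are close to the share of all measured genes that were higher. IDH2, the mitochondrial NADP isocitrate dehydrogenase, was 3.42-fold higher (3.15 to 3.72), and SDHA, which has near-identical pseudogene copies and is uncertain for that reason, 2.36-fold higher. SUCLG2, a succinyl-CoA ligase subunit, was 1.55-fold lower. Fatty acid synthesis, the opposing route, had a median of 0.37 over 12 measured genes, 3 of them at least 2-fold higher, 4 at equal totals or without the trend, and 0 lower. Of all measured genes, 11.0% were at least 2-fold higher as deposited, 13.4% at equal totals and 9.20% without the trend. The shares at least 2-fold lower were 8.28%, 6.04% and 8.49%. FASN, FADS2 and the NADPH source ME1 were 3.18-fold, 2.58-fold and 2.49-fold higher, and ELOVL5 1.98-fold. Ketone body enzymes had 0 of 5 past 2-fold in either direction, or 1 higher at equal totals and without the trend, OXCT1, whose ratio was 1.98-fold higher as deposited. Of 7 measured lipolysis and thioesterase genes 0 passed 2-fold, with a median of 0.14 as deposited and -0.29 without the trend on GC content and length. Genes of mitochondrial outer membrane and import had a median of -0.38, or -0.17 without the trend. HSPE1, 2.34-fold higher, was the 1 of 11 past 2-fold as deposited, also close to the 11.0% of all measured genes that were higher. TIMM23, which has a near-identical copy, was 1.88-fold lower. TIMM44 was lower too, short of 2-fold as deposited and past it without the trend, at a log2 ratio of -1.21.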

How the data were processed

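The members and gene lists were chosen with earlier results of these data known. The deposited tables hold FPKM for 58735 Ensembl genes in 2 libraries, per the file headers. The submitters' processing notes name HISAT2 2.0.5 and the build hg18, and no source used here gives the counter, annotation or FPKM formula. All 58735 identifiers matched GENCODE release 29 on GRCh38, the source of symbols, lengths and gene coordinates. FPKM times merged exon length gave whole multiples of one step, 58.3, in both libraries (100% of 21622 and 22790 values above 0; for values of up to 100 reads within 0.01 read), and these were taken as reads. The depth divisor that this step implies, 17162968 reads for both libraries, equals the geometric mean of the recovered totals. The builds named and matched differ, and which was aligned to is not settled. Folds are ratios of reads with exact 95% intervals conditional on the sum (Clopper-Pearson); quotients of 2 genes have the exact conditional interval of the odds ratio. Intervals cover counting error only and take reads as independent. PCR reads lacking molecular identifiers are not independent, so the intervals may be too narrow. Log2 ratios use FPKM + 0.1, and a measured gene has at least 1 FPKM in the higher library. Alternatives were equal totals, pseudocounts of 0.01 and 1, minimums of 0 and 5 FPKM, a 1.5-fold threshold, and removal of the trend on GC content and length (medians of 20 bins each). Named were the 10 members, SIK2 and up to 4 measured genes with the largest absolute log2 ratio in each list; ACADL, CPT1B and CRAT were named after their values were seen, and not all genes the rule picks are printed. The 2-fold rule, intervals and trend removal were tested on simulated data. These held counting error only, at equal depth, so they cannot show how often like libraries differ by 2-fold. Promoters are from RefSeq (GRCh38.p14); all 10 symbols matched. Tools were scipy 1.17.1, pandas 2.3.3, numpy 2.4.6 and matplotlib 3.10.9 under Python 3.11.15.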

Additional observations from a re-analysis of the deposited data

How the results depend on the processing

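No paired analysis was possible because each group is 1 library, and no library could be left out. The 2 members at least 2-fold higher stayed 2 at equal totals, with a pseudocount of 0.01, with no minimum and at a 1.5-fold threshold. They were 0 with a pseudocount of 1 and 1 without the trend on GC content and length; with a minimum of 5 FPKM, which left 6 members, they were 0, since ACADS and ECI2 were not among them. The count at least 2-fold lower was 0 under each of these. The median log2 ratio of the members ranged from -0.05 (minimum of 5 FPKM) to 0.18 (equal totals). Of 51 genes under the naming rule, the log2 ratio moved beyond its counting interval for 25 at equal totals, 27 without the trend, 10 with a pseudocount of 1 and 0 with one of 0.01, and no 2-fold ratio changed sign. Depth limits ACADS most, with 22 and 63 reads.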
